A study of Homo sapiens with 6 samples.

Results

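The genes described here encode the receptors, adaptors and proximal regulators of death receptor signalling. They were chosen by name, as every array feature annotated to FADD, FAS, TNFRSF10A, TNFRSF10B, TNFRSF1A, TRADD, RIPK1 or CFLAR. The list was drawn up with earlier results of these data known, although its rule uses no measured value. Of these 8 genes, 7 were represented, by 840 of the 40146 array features that carried a gene name, and in 7 of 843 named genes. TNFRSF10A was not analysed here. RNA from Hep3B cells collected 6 h after irradiation with 10 J/m2 UV light was compared with RNA from untreated Hep3B cells, in 3 biological replicates. Hep3B is an established human hepatoma line in which p53 is known to be missing, and one line stands for one tumour. Each replicate was hybridized on 2 two-colour splicing-sensitive arrays, the UV sample carrying Cy5 in the direct and Cy3 in the dye-swap hybridization. Values are log2 ratios of UV over untreated, so a negative value means a lower signal after UV, and they give no level of a transcript in either sample.

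Death receptors are members of the TNF receptor superfamily that carry a death domain on their cytoplasmic tail. Once ligand binds, FAS and the TRAIL receptors recruit the adaptor FADD through this domain, and FADD in turn gathers the initiator caspases CASP8 and CASP10 into a death-inducing complex. TNFRSF1A instead recruits TRADD and the kinase RIPK1, a platform known to signal first to NF-kB and, when that arm is blocked, to pass to a second complex that holds FADD and CASP8. CFLAR encodes c-FLIP, a short-lived relative of CASP8 that binds FADD and restrains caspase activation. Hepatocytes are known to be sensitive to FAS ligation, and to die in response to TNF when transcription is arrested. FAS and TNFRSF10B are also known as transcriptional targets of p53.

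The 6 arrays held a value for 36532 to 38392 of 45220 features, and their medians lay between -0.010 and 0.010. Arrays of the same orientation correlated at 0.836 to 0.943 and direct with dye-swap arrays at 0.538 to 0.663, over features. None of the 12 hepatocyte markers listed, none of the 3 fibroblast markers and 1 of the 3 blood markers was represented. Since ratios give no level of a transcript, the labelled cell type could not be checked on these arrays in any case. RNA came from whole cultures, and less of a transcript per cell and fewer cells holding it cannot be told apart.

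Of the 7 genes, 5 were lower in UV than in untreated cells and none was higher. FADD was lower by far more than the others, followed by RIPK1 and CFLAR, whereas the 2 lower receptors, TNFRSF1A and TNFRSF10B, differed from 0 by little. FAS and TRADD did not pass the test. By limma with an adjusted p of 0.05 over all genes, 71.7% of the 775 genes tested were called, 41.4% lower and 30.3% higher. Among genes with 3 or more features, as the 7 all were, 35.8% were lower, so a lower ratio was common on this array. Past a fold of 1.3 in addition, FADD alone of the 7 was called, against 18.8% of all genes lower and 2.06% higher, and 9.01% lower among genes with 3 or more features. The median of the 7 genes was -0.12, beside -0.03 over all genes tested. The count of 5 was 3 to 6 when a replicate was left out.

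**Figure D1:**
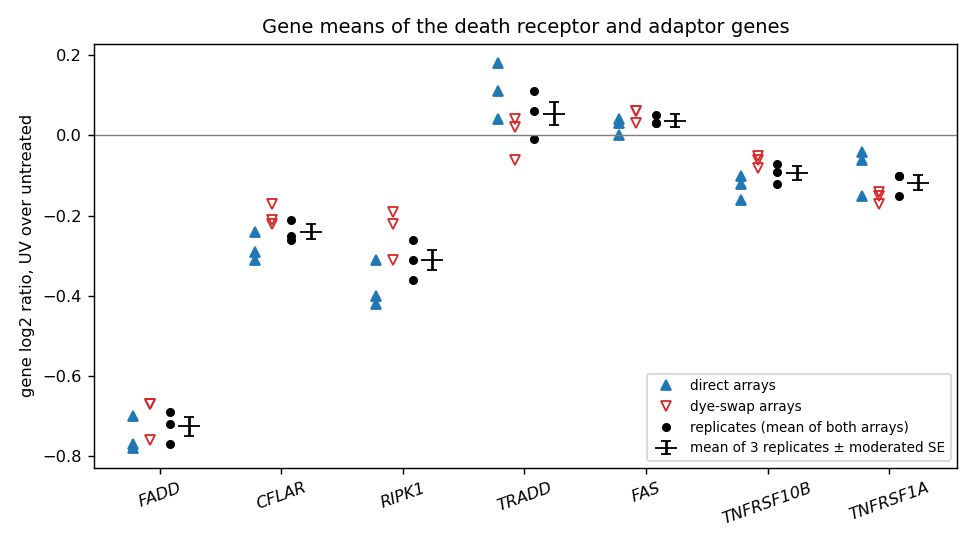
Gene log2 ratio of UV over untreated (vertical axis, log2) for the 7 genes: triangles are the 3 direct and the 3 dye-swap arrays, dots the 3 replicates, and the bar the mean of the replicates with its moderated SE. FADD lies between -0.78 and -0.67 on all 6 arrays, below every other gene shown, and the arrays of FAS and TRADD reach 0 or cross it.

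FADD, the adaptor that bridges death receptors to initiator caspases, had gene log2 ratios of -0.70, -0.78 and -0.77 on the direct arrays and of -0.67, -0.76 and -0.67 on the dye-swap arrays. The arrays lay close together and the orientations overlapped. The gene was 1.65-fold lower in UV than in untreated cells (log2 ratio -0.73, SE 0.0229, n = 3, limma adjusted p = 1.30e-04), with a SD of 0.0403 between replicates. Among the 466 genes with 3 or more features, its log2 ratio ranked 8 from the lowest. In 18 alternative treatments of the data FADD remained lower and past the threshold, between -0.95 and -0.70.

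TRADD, the adaptor that links TNFRSF1A to RIPK1, had log2 ratios of 0.18, 0.04 and 0.11 on the direct arrays and of 0.04, -0.06 and 0.02 on the dye-swap arrays. Its values lay on both sides of 0, and its mean of 0.05 (SE 0.0297, n = 3) did not pass (limma adjusted p = 0.167). Leaving out replicate 2 brought the mean to 0.09 with an adjusted p of 0.0242, and the dye-swap arrays alone gave 0.00 with an adjusted p of 0.986. FADD and TRADD thus lay at opposite ends of the 7 genes, although both are death domain adaptors.

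RIPK1, the kinase that directs signalling from TNFRSF1A to survival or death, had log2 ratios of -0.42, -0.31 and -0.40 on the direct arrays and of -0.19, -0.22 and -0.31 on the dye-swap arrays. All 6 arrays were below 0, and the direct arrays were the lower ones, touching the dye-swap arrays at -0.31. The mean of -0.19 on dye-swap array 1 included a single feature that read far higher there than on the other arrays. The gene was 1.24-fold lower in UV than in untreated cells (log2 ratio -0.31, SE 0.0251, n = 3, limma adjusted p = 0.0011). It ranked 60 from the lowest of the 466 genes.

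CFLAR, the inhibitor of caspase activation at the receptor, had log2 ratios of -0.31, -0.24 and -0.29 on the direct arrays and of -0.21, -0.17 and -0.22 on the dye-swap arrays. Every array was below 0, and here no direct array overlapped a dye-swap array. The gene was 1.18-fold lower in UV than in untreated cells (log2 ratio -0.24, SE 0.0197, n = 3, limma adjusted p = 0.00114), at rank 90 of 466. RIPK1 and CFLAR were neighbours in the order of the genes, and their replicates met at -0.26.

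FADD, RIPK1 and CFLAR had the lowest ratios of the 7 genes, and their promoters are shown to place the 3 genes beside each other. Each run is the 250 bases before the most upstream start site that RefSeq gives for the gene (GRCh38.p14, plus strand). Of the 8 genes, 5 had an entry in the promoter table, with 1 window for FADD, 3 for RIPK1 and 4 for CFLAR. Which start site these cells used was not tested. Capitals mark matches on either strand to the GC box GGGCGG, the CCAAT box, the TATA box TATAAA or the NF-kB consensus.
FADD, chr11:70203046-70203295: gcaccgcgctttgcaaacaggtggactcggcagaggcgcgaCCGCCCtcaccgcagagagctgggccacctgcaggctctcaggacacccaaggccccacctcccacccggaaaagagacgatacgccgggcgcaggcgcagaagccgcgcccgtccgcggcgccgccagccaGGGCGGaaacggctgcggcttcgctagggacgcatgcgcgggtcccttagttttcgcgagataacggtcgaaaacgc
RIPK1, chr6:3063717-3063966: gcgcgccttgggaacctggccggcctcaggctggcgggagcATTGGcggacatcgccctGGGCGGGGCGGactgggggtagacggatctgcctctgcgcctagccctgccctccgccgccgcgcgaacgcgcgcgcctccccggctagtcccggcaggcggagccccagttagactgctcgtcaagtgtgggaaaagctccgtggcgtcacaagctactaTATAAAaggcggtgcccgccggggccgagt
CFLAR, chr2:201118466-201118715: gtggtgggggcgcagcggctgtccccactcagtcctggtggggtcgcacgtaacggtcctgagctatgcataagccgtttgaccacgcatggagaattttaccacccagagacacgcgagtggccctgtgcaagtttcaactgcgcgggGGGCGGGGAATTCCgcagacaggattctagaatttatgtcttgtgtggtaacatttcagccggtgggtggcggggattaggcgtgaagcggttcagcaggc
The FADD window was 68.8% G and C, held 2 GC boxes and matched no other motif. The RIPK1 window was 70.4% G and C and held 2 overlapping GC boxes, 1 CCAAT box and 1 TATA box. The CFLAR window was 58.8% G and C and held 1 GC box that overlapped 1 match to the NF-kB consensus. A GC box was thus present in all 3 windows, but over 35116 RefSeq windows of the same length 42.6% held one. A CCAAT box was found in 32% of all windows, a TATA box in 10.7% and the NF-kB consensus in 5.21%, and the median window was 58% G and C. These matches describe letters and not bound sites.

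The receptors stayed closer to 0. FAS, the receptor for FAS ligand, had log2 ratios of 0.04, 0.00 and 0.03 on the direct arrays and of 0.03, 0.06 and 0.06 on the dye-swap arrays. Its mean of 0.04 (SE 0.0162, n = 3) did not pass (limma adjusted p = 0.106). With the 6 arrays fitted separately and the replicate as a block the same mean of 0.04 passed (adjusted p = 0.0301). That fit used a negative correlation of -0.506 within replicates. With the 6 arrays fitted as independent the mean did not pass (adjusted p = 0.104). In each fit the fold was 1.03.

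TNFRSF10B, a receptor for TRAIL also known as DR5, had log2 ratios of -0.10, -0.16 and -0.12 on the direct arrays and of -0.05, -0.08 and -0.06 on the dye-swap arrays. All 6 arrays were below 0, the direct ones without overlap with the others. The gene was 1.07-fold lower in UV than in untreated cells (log2 ratio -0.09, SE 0.0186, n = 3, limma adjusted p = 0.0133). Without replicate 1 the log2 ratio was -0.10 (adjusted p = 0.0724) and without replicate 3 it was also -0.10 (0.108). In both cases the call was lost while the ratio was no smaller. The call held without replicate 2, where the log2 ratio was -0.08 (adjusted p = 0.0109). On the dye-swap arrays alone the log2 ratio was -0.06 (0.0562).

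TNFRSF1A, the main TNF receptor, had log2 ratios of -0.04, -0.15 and -0.06 on the direct arrays and of -0.17, -0.14 and -0.15 on the dye-swap arrays. Here the dye-swap arrays tended to be the lower ones, and the orientations overlapped. The gene was 1.08-fold lower in UV than in untreated cells (log2 ratio -0.12, SE 0.0192, n = 3, limma adjusted p = 0.00776). Without replicate 3 the log2 ratio was -0.1250 and did not pass (adjusted p = 0.0692), and on the direct arrays alone it was -0.08 and did not pass (0.0851). Ordered from the lowest, the genes ran FADD, RIPK1, CFLAR, TNFRSF1A, TNFRSF10B, FAS and TRADD. The replicates of TNFRSF1A and TNFRSF10B overlapped, as did those of FAS and TRADD. Differences between genes were not tested.

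Each of the 7 genes was represented by several features, from 34 for FADD to 488 for FAS, so that single features could part from the mean of their gene. Where each feature lies in its gene is not stated in the sources used here, and features of one gene are not independent of each other. FADD had the widest spread of the 7 genes. Its 33 tested features had log2 ratios between -1.63 and 0.25 with a median of -0.92, and their SD of 0.70 ranked 2 among the 466 genes, behind PRP4K at 0.79. AURKA (0.70), MCL1 (0.67) and TRAF6 (0.63) came next. The median SD over the 466 genes was 0.13, and 12 of them exceeded 0.5. Of the FADD features, 23 were lower, 4 were higher and 6 did not pass, so that 81.8% were called, beside 54.5% of the 34301 features tested.

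The FADD features fell into 3 stretches of the scale, with bounds of -0.8 and 0 set after the values were seen, and they are described without a test. The 18 lowest ran from -1.63 to -0.91, and their means were -1.28, -1.31 and -1.30 on the direct arrays and -1.31, -1.38 and -1.36 on the dye-swap arrays. Averaged over both orientations, they were 2.5-fold lower in UV than in untreated cells, with the dye-swap array the lower one in each replicate. All 18 passed the test of single features, but they had been picked by these same values. A further 5 features ran from -0.44 to -0.21. The remaining 10 ran from 0.03 to 0.25, with means of 0.13, -0.12 and -0.01 on the direct arrays and of 0.26, 0.22 and 0.36 on the dye-swap arrays. Of these 10, 4 were higher in UV and 6 did not pass, and none was higher past 1.3-fold. Only 1 FADD feature with a value on every array was above 0 on all 6 (3.12%), beside 17.3% of all such features. For 4 of the 10 the orientations stood apart, with direct values down to -0.63 and dye-swap values up to 0.84. Of the features called higher, those at 0.19 and 0.22 were among them and those at 0.25 were not. The feature at 0.19 read 0.15, -0.27 and -0.04 on the direct arrays and 0.44, 0.28 and 0.59 on the dye-swap arrays. The gene mean of -0.73 thus averaged over all 3 stretches, whose means were -1.32, -0.30 and 0.14, and no single feature lay between -0.91 and -0.44.

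**Figure D2:**
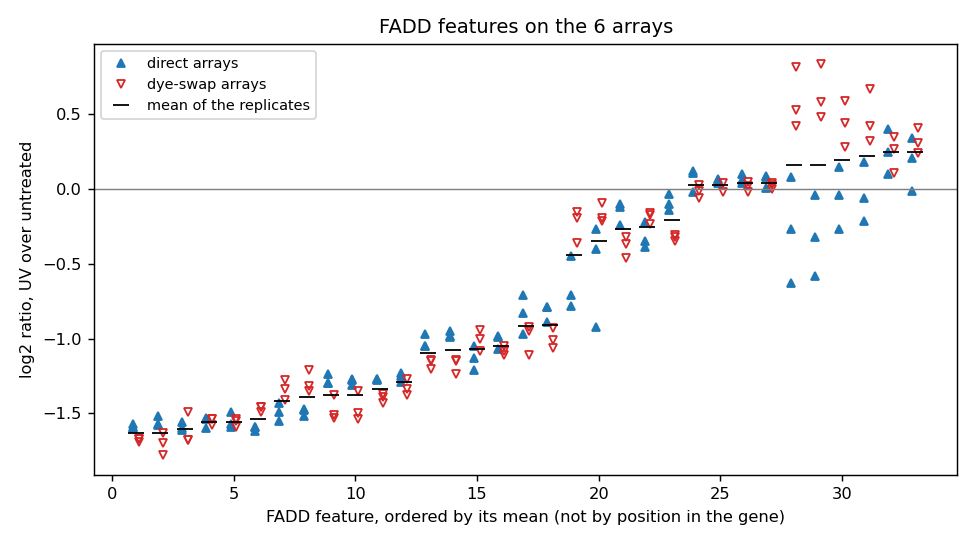
Log2 ratio of UV over untreated (vertical axis) of the 33 tested FADD features, ordered by their mean (horizontal axis, not by position in the gene): triangles are single arrays and dashes the mean of the replicates. The 18 features at the left have means at or below -0.91, and 4 of the 10 at the right have direct values down to -0.63 and dye-swap values up to 0.84.

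A splicing index set the log2 ratio of each feature against the mean of all others in the same gene, and was called at an adjusted p of 0.05 and a fold over 1.4. In FADD 24 of 33 features were called, 12 below and 12 above the rest of the gene (72.7%), where 3.92% of the 33992 features tested were called, 2.16% below and 1.76% above. The lowest FADD feature had log2 ratios of -1.60, -1.59 and -1.57 on the direct arrays and -1.67, -1.69 and -1.67 on the dye-swap arrays. It was 3.1-fold lower in UV than in untreated cells and 1.91-fold below the rest of FADD (index -0.93, SE 0.0287, n = 3, limma adjusted p = 7.13e-06). The highest index was that of a feature with 0.34, -0.01 and 0.21 on the direct arrays and 0.31, 0.24 and 0.41 on the dye-swap arrays. It stood 2.01-fold above the rest of the gene (index 1.01, SE 0.0372, n = 3, limma adjusted p = 1.13e-05). Since the index is relative to the gene, a mean that lies between both kinds of features, as in FADD, puts features of either kind apart from it.

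In TNFRSF1A 3 of 39 features were called by the index (7.69%, beside 3.92% of all features), 1 below and 2 above the rest. On the dye-swap arrays alone 8 were called, and against the median of the other features 5. The low feature had log2 ratios of -1.51, -1.54 and -1.57 on the direct arrays and -1.63, -1.55 and -1.62 on the dye-swap arrays, close together in both orientations. It was 2.97-fold lower in UV than in untreated cells, and its index was -1.49 (SE 0.0303, n = 3, limma adjusted p = 3.25e-06). The next lowest of the 39 tested TNFRSF1A features was at -0.59. Without this feature, an alternative chosen after seeing the data, the gene log2 ratio was -0.08 and still passed (adjusted p = 0.0231). At the upper end 2 features were called, of which the higher had 0.61, 0.16 and 0.49 on the direct arrays and 0.46, 0.38 and 0.52 on the dye-swap arrays (index 0.57, SE 0.0467, n = 3, limma adjusted p = 1.64e-04).

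RIPK1 and CFLAR were lower across most of their features. In RIPK1, 24 of 33 tested features were lower and none was higher, and in CFLAR 83 of 115 were lower and 8 higher, beside 28.2% lower and 26.3% higher of all features. Past 1.3-fold, 15 RIPK1 and 31 CFLAR features were lower and none was higher, beside 11.6% lower and 2.21% higher. All 6 arrays were below 0 for 20 of the 26 RIPK1 features with a value on every array and for 68 of 106 in CFLAR, against 23.3% of all such features. The index called 1 feature of each gene, 3.03% in RIPK1 and 0.87% in CFLAR, beside 3.92% of all features. Without replicate 2 it called 3 in either gene, without replicate 1 none in CFLAR, and on the dye-swap arrays alone 12 in CFLAR and 2 in RIPK1. The RIPK1 feature had log2 ratios of -1.31, -0.94 and -1.17 on the direct arrays and -1.08, -0.97 and -1.28 on the dye-swap arrays, all below the next lowest feature mean of -0.67. Its index was -0.84 (SE 0.044, n = 3, limma adjusted p = 3.35e-05). The CFLAR feature averaged -0.73 and had an index of -0.49 (SE 0.0263, n = 3, limma adjusted p = 3.58e-05), just past the fold limit at 1.41-fold. That call was lost without replicate 1, on the direct arrays alone, with the features present on all 6 arrays and against the median of the other features, where the index ran from -0.48 to -0.40 and fell short of the fold limit.

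TNFRSF10B features ran from -0.52 to 0.48 with a SD of 0.24, close to that of CFLAR at 0.23. Of 45 tested, 24 were lower, 9 were higher and 12 did not pass, beside 28.2% lower and 26.3% higher of all features. The index called 2 of 45 TNFRSF10B features (4.44%, beside 3.92% of all features), both higher, and the orientations disagreed on their size. The higher had 0.24, 0.03 and 0.23 on the direct arrays and 0.79, 0.67 and 0.92 on the dye-swap arrays (index 0.59, SE 0.0409, n = 3, limma adjusted p = 8.72e-05), and no TNFRSF10B feature was called on the direct arrays alone, 5 on the dye-swap arrays alone and 3 without replicate 2. TRADD had no feature called by the index, and the largest departure was that of a feature at 0.40 whose arrays ranged from -0.13 to 1.01 (index 0.35, SE 0.0733, n = 3, limma adjusted p = 0.00842), short of the fold limit at 1.27-fold. On the direct arrays alone 2 TRADD features were called, this one among them with an index of 0.53, against 0.17 on the dye-swap arrays.

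FAS was the gene with most features and most empty cells. FAS had 488 features, of which 192 had a value on all 6 arrays and 29 on none, and 30.4% of its cells were empty, beside 10.9% over all named features. The sources used here do not say why a cell is empty. Of the 281 FAS features tested, 11 were lower, 47 were higher and 223 did not pass, so that 20.6% were called, fewer than the 54.5% of all features (28.2% lower and 26.3% higher). These counts were unsteady, since 58 calls became 24 without replicate 1 and 14 without replicate 3. Calls over all features fell as well, from 18693 to 11656 and 9839. On the direct arrays alone 80 FAS features were called, and on the dye-swap arrays alone 129. The index called 3 FAS features (1.07%, beside 3.92% of all features), all lower. Their direct values ran from -0.84 to -0.65 and their dye-swap values from -0.56 to -0.09. The lowest had -0.82, -0.68 and -0.72 on the direct arrays and -0.56, -0.43 and -0.31 on the dye-swap arrays (log2 ratio -0.59, index -0.63, SE 0.038, n = 3, limma adjusted p = 5.34e-05). In both orientations these values were below 0, but more so on the direct arrays. On the dye-swap arrays alone the index of this feature was -0.48, under the fold limit.

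**Figure D3:**
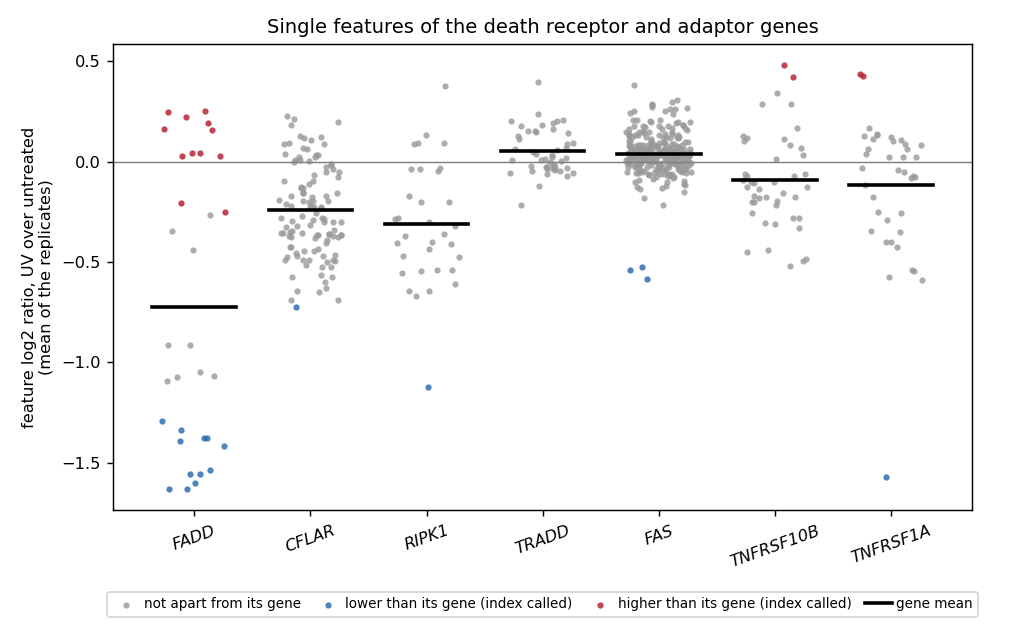
Log2 ratio of UV over untreated (vertical axis) of each tested feature of the 7 genes, as the mean of the replicates: each point is a feature, horizontal scatter has no meaning, and bars are gene means. Blue and red points were called below or above the rest of their gene by the index, and FADD has 12 of each, whereas TRADD has none and TNFRSF1A has 1 low feature at -1.57.

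The agreement of the dye orientations was tested within each replicate as the half-difference, direct minus dye-swap. Of the 7 genes, 3 passed at an adjusted p of 0.05, beside 51.9% of all genes tested. TRADD averaged 0.11 over the direct arrays and 0.00 over the dye-swap arrays (half-difference 0.0552, SE 0.0131, n = 3, limma adjusted p = 0.0283). RIPK1 averaged -0.38 over the direct arrays and -0.24 over the dye-swap arrays (half-difference -0.0686, SE 0.0191, adjusted p = 0.0433), and CFLAR -0.28 and -0.20 (half-difference -0.0405, SE 0.0119, adjusted p = 0.0494). RIPK1 and CFLAR were thus lower in UV in both orientations, while the mean of TRADD was above 0 on the direct arrays and at 0.00 on the others. None of the 7 passed without replicate 2 or without replicate 3. FADD averaged -0.75 and -0.70, a half-difference of -0.0248 that did not pass (SE 0.0147, adjusted p = 0.228). At the level of features, the orientations differed in sign for 5 of 32 FADD features with a value on every array, 4 of 26 in RIPK1 and 19 of 106 in CFLAR, but for 113 of 192 in FAS and 25 of 47 in TRADD, beside 37.4% of all such features.

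**Figure D4:**
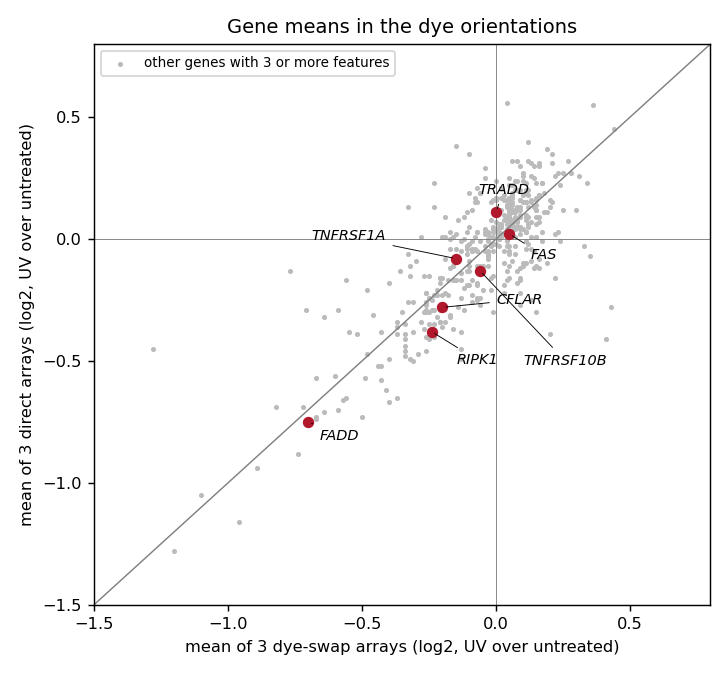
Gene log2 ratio of UV over untreated, as the mean of the 3 direct arrays (vertical axis) against the mean of the 3 dye-swap arrays (horizontal axis): each point is a gene with 3 or more features, the 7 genes are red, and the diagonal marks equal values. FADD lies near the diagonal at -0.75 and -0.70, and TRADD at 0.11 and 0.00.

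The other genes of the pathway were taken from a list of 69, of which 35 were tested. Of these, 15 were lower, 11 were higher and 9 did not pass, beside 41.4% lower and 30.3% higher of all genes, and their median was -0.05. Among 4 ligands 3 were higher and none was lower, with TNF, the ligand of TNFRSF1A, at 0.45 (SE 0.0263, n = 3, limma adjusted p = 4.80e-04) and TNFSF10, which encodes TRAIL, not passing. Of 5 other receptors of the superfamily 4 were higher and none was lower, with CD40, a costimulatory receptor, at 0.13 (SE 0.0208, adjusted p = 0.00765). Past 1.3-fold TNF alone of the ligands and none of these receptors was higher, beside 2.06% of all genes. LTA, another of the higher ligands, rested on 1 feature.

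Of the 14 adaptors, ubiquitin ligases and kinases at the receptor that were tested, 10 were lower, 2 were higher and 2 did not pass, with a median of -0.15. Past 1.3-fold 3 of the 14 were lower, beside 18.8% of all genes. TANK, a binding partner of TRAF proteins, was the lowest at -2.02 (SE 0.0643, n = 3, limma adjusted p = 1.30e-04) but rested on 1 feature. CRADD, an adaptor of CASP2, was the highest at 0.09 (SE 0.0209, adjusted p = 0.0233), with means of 0.17 over the direct arrays and 0.00 over the dye-swap arrays. Among the 12 caspases, caspase substrates and mitochondrial factors, 5 were lower, 2 were higher and 5 did not pass, among them CASP8 and CASP10, the caspases that FADD recruits. CASP8 averaged 0.00 (adjusted p = 0.909), the direct arrays giving -0.10 and the dye-swap arrays 0.11. APAF1, the core of the apoptosome, was lower at -0.66 on 1 feature (SE 0.074, adjusted p = 0.00256), and DFFA, the inhibitor of a caspase-activated nuclease, was higher at 0.09 (SE 0.0173, adjusted p = 0.0118). The counts of the 35 genes moved with the replicates, with 11 lower and 2 higher without replicate 1, and 6 lower and 1 higher without replicate 3.

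**Figure D5:**
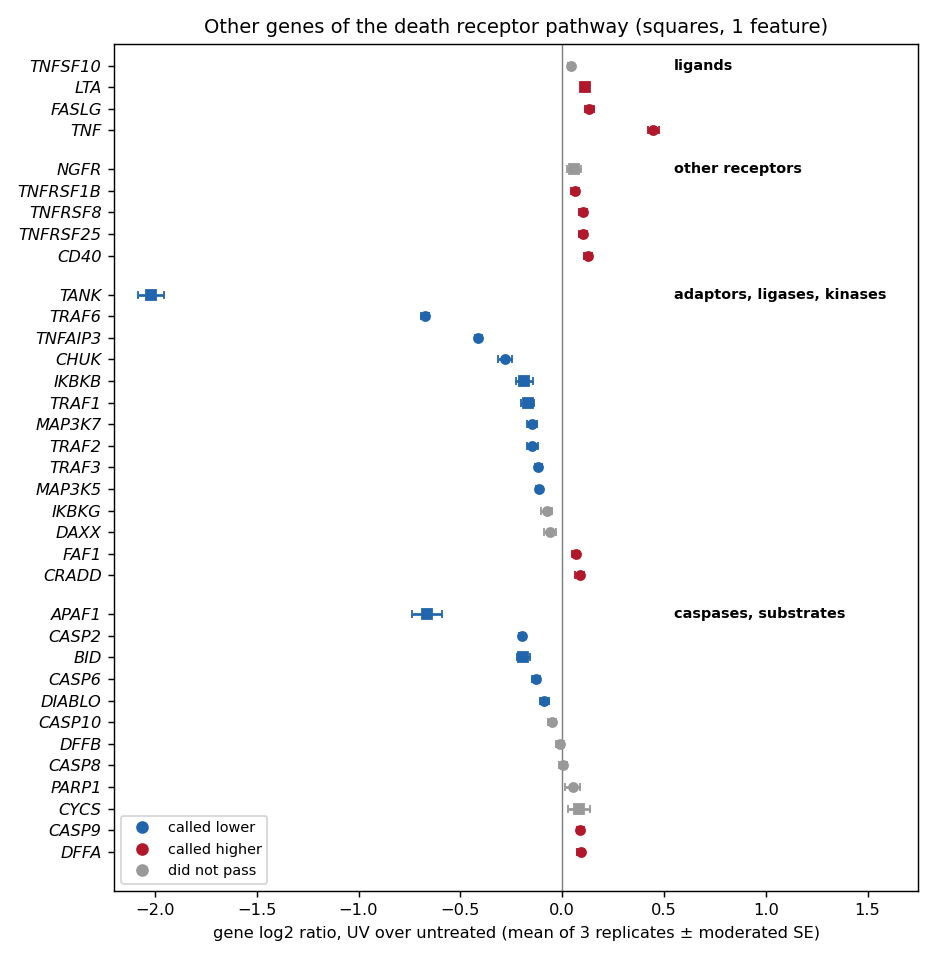
Gene log2 ratio of UV over untreated (horizontal axis, mean of 3 replicates with its moderated SE) of the 35 other pathway genes tested, grouped by role: blue was called lower, red higher and grey did not pass, and squares are genes with 1 feature. TNF at 0.45 and TANK at -2.02 lie farthest from 0 on either side.

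The genes closest to FADD over the 6 arrays, among 465 genes with 3 or more features, were MYC, AURKA, TRAF6, ATG5 and NFKBIA. Their root mean square differences from FADD were 0.0724, 0.075, 0.0854, 0.0898 and 0.0992 on the log2 scale, in that order. MYC, a transcription factor, averaged -0.70 and AURKA, a mitotic kinase, -0.70. TRAF6, a ubiquitin ligase of the NF-kB pathway, averaged -0.67, ATG5, an autophagy factor, -0.71, and NFKBIA, the inhibitor of NF-kB, -0.75. The measure is one of likeness in level over 6 arrays of one comparison. In AURKA and TRAF6 the features also spread widely, with SDs of 0.70 and 0.63, beside 0.70 in FADD.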

How the data were processed

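RNA from UV-irradiated and untreated Hep3B cells was hybridized on 6 two-colour Agilent custom splicing-sensitive arrays. The deposited values were log2 ratios per feature, which the authors had corrected for background with normexp, normalized by LOWESS and analysed with limma. Scanner signals were not used here, so dim features were not filtered, and no source used here names the genome build. UV over untreated was taken as the direction, from the dyes in the labels and from dye-swap columns that correlated above 0 with the direct ones and so had been turned already. Gene names came from the platform annotation, updated through RefSeq symbols with 38971 features matched by accession, 978 by symbol and 197 by synonym, while 5074 had no name. Empty cells made up 15.1% to 19.2% of each array.

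The features of a gene were averaged on each array, and both arrays of a replicate were then averaged, since both hold the same pair of extracts. Deviations from the orientation means correlated at -0.00695, 0.452 and 0.101 within replicates 1, 2 and 3. The unpaired direct array of replicate 1 and dye-swap array of replicate 3 reached 0.425, so the pairing given by the titles was clear in the values for replicate 2 only. A model with an intercept alone was fitted with limma 3.58.1 (R 4.3.3, statmod 1.5.0) over all genes, or all named features, with a value in at least 2 replicates. Tests were two-sided with Benjamini-Hochberg adjustment at 0.05, and the splicing index additionally required a fold over 1.4 and 3 features per gene. The SE is that of limma's moderated variance and leaves out a dye effect that repeats across replicates. The number of arrays limits the precision. Scripts were tested on simulated data.

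The genes, the pathway list and the tests were chosen with earlier results of these data known. Named pathway genes were, per role, the called gene with the largest fall and with the largest rise. Named features were, per gene, the largest called departure each way, or the largest departure where none was called. The 5 genes nearest FADD were named by root mean square difference. CASP8, CASP10 and TNFSF10 were added for their role after their values were seen. Alternatives covered scaling, dye orientation, replicates, missing values, the summary of a gene, the variance prior and thresholds.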

Additional observations from a re-analysis of the deposited data

Results flagged for a closer look

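The direct and dye-swap arrays differed for 3 of the 7 genes by a test of the difference itself. The half-difference of direct minus dye-swap arrays was 0.06 for TRADD (limma adjusted p = 0.0283, n = 3), -0.07 for RIPK1 (adjusted p = 0.0433) and -0.04 for CFLAR (adjusted p = 0.0494). In RIPK1 and CFLAR all 6 arrays were below 0, and in TRADD the direct arrays lay from 0.04 to 0.18 and the dye-swap arrays from -0.06 to 0.04. Over all genes tested, 51.9% passed the same test. A single RIPK1 feature stood out on dye-swap array 1. Without replicate 1 the RIPK1 half-difference was -0.0464 (limma adjusted p = 0.0274).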

How the results depend on the processing

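FADD kept its direction and its call in all 18 alternatives, and RIPK1 and CFLAR in 17 of 18 each. A fold over 1.3 left 162 genes and 1 of the 7, and ended the calls of RIPK1 (-0.3094), CFLAR (-0.2396), TNFRSF1A (-0.1176) and TNFRSF10B (-0.0935), the last also at an adjusted p of 0.01. On the direct arrays alone TNFRSF1A (-0.0844) lost its call. With the dye-swap arrays alone TNFRSF10B (-0.0616) lost its call, TRADD was -0.0006 and so turned direction, 7 pathway genes were higher, and 2014 features departed from their gene, against 1331 in the averaged arrays. With the replicate block (fitted correlation -0.506) FAS, at a log2 ratio of 0.0370, passed (limma adjusted p = 0.0301) and no other call among the 7 changed. Restricting the test to genes with 3 or more features left 366 genes called, and a fold over 2 left 130 features by the index. The causes were not tested.

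Leaving out a replicate gave 311 to 637 genes called, 3 to 6 of the 7 genes, 6 to 15 pathway genes lower and 1 to 13 higher, 9839 to 18062 features called, and 0 to 4 of the 7 genes with an orientation difference. Log2 ratios then ran from -0.1032 to -0.0806 for TNFRSF10B, -0.1254 to -0.1024 for TNFRSF1A and 0.0268 to 0.0874 for TRADD. The counts of 3 of the 7 genes, 6 and 1 pathway genes and 311 genes were those without replicate 3. The receptor ratios moved little. The adjusted p of TNFRSF10B crossed the threshold without replicate 1 or replicate 3, and that of TNFRSF1A without replicate 3. Both genes kept their calls without replicate 2.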

Other observations

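Some single features stood out on 1 array only. A RIPK1 feature read 2.70 on dye-swap array 1 and -0.24 to 0.08 on the other arrays. On the same array a FAS feature read 2.29 against -0.04 to 0.03, and a TNFRSF10B feature 1.36 against 0.00 to 0.26. None of these was called. On direct array 3 a CFLAR feature read 0.29, against -0.66 to -0.36 on the other arrays, and it was called lower. All of these features were picked after their values were seen, and the cause of such readings was not tested.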
